A study of Mus musculus with 4 samples.

Results

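The imprinted Dlk1-Dio3 region of mouse chromosome 12 holds one of the largest groups of miRNA genes in the mouse, and 10 mature miRNAs of this cluster were followed here among the cell-free miRNAs (cf-miRNAs) of plasma. They were taken by their identifiers, 10 of the 1265 probes of the array, and not by their signals. Plasma came from 2 aged (23 to 24 months) and 2 young (6 to 7 weeks) male C57BL6/J mice, untreated as far as the labels say, and each mouse had its own 1-colour array. Such an array carries probes for mature miRNAs, which capture RNA tagged with the dye Hy5. Within an age the labels number the mice 1 and 2, and the study calls these numbers experiments, each with an aged and a young array. The values are linear signal intensities with a median of 25 over those listed on each array, and a probe with no listed value was left blank. Plasma gathers RNA released by many tissues, so a change in the number of source cells and a change in the RNA released per cell cannot be told apart.

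In this region the maternal chromosome is the source of the non-coding RNAs Meg3, Rian and Mirg, of a transcript antisense to Rtl1, and of the miRNAs that lie in or beside them, whereas Dlk1, Rtl1 and Dio3 are made from the paternal chromosome. The miRNAs are known for their expression in the embryo, the placenta and the brain. A miRNA recognises its targets mainly through its seed, bases 2 to 8 from the 5′ end, and either arm of the hairpin precursor (5p or 3p) can give a mature miRNA.

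The RefSeq table for GRCm38.p6 places 58 miRNA genes with 113 mature miRNAs between Dlk1 and Dio3, and all 10 miRNAs followed here, from 9 genes, were found in it on the plus strand. The deposited table does not pair the identifiers of the other mature miRNAs of the region with names, so their signals were not analysed here. The sequences of the 4 miRNAs from Meg3 and the Rtl1 antisense group that the results turn on are shown first, 5′ to 3′ with the seed in capitals.

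miR-770-3p (MIMAT0003891), within Meg3, chr12:109563744-109563765: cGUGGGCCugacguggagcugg
miR-433-5p (MIMAT0001419), within the span of Rtl1, chr12:109591729-109591750: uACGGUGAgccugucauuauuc
miR-433-3p (MIMAT0001420), within the span of Rtl1, chr12:109591781-109591802: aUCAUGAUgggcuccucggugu
miR-127-3p (MIMAT0000139), within the span of Rtl1, chr12:109592888-109592909: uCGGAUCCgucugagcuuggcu

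The 6 others are shown because they were seldom or never listed. miR-136-5p also lies within the span of Rtl1, miR-154-5p lies within Mirg, and the 4 between them in the list lie between the annotated end of Rian and the start of Mirg.

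miR-136-5p (MIMAT0000148), chr12:109595331-109595352: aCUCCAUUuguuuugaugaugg
miR-379-5p (MIMAT0000743), chr12:109709065-109709085: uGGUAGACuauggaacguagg
miR-381-3p (MIMAT0000746), chr12:109726870-109726891: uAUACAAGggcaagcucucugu
miR-382-5p (MIMAT0000747), chr12:109733781-109733802: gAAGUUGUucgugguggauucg
miR-134-5p (MIMAT0000146), chr12:109734145-109734166: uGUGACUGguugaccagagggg
miR-154-5p (MIMAT0000164), chr12:109738438-109738459: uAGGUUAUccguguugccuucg

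**Figure D1:**
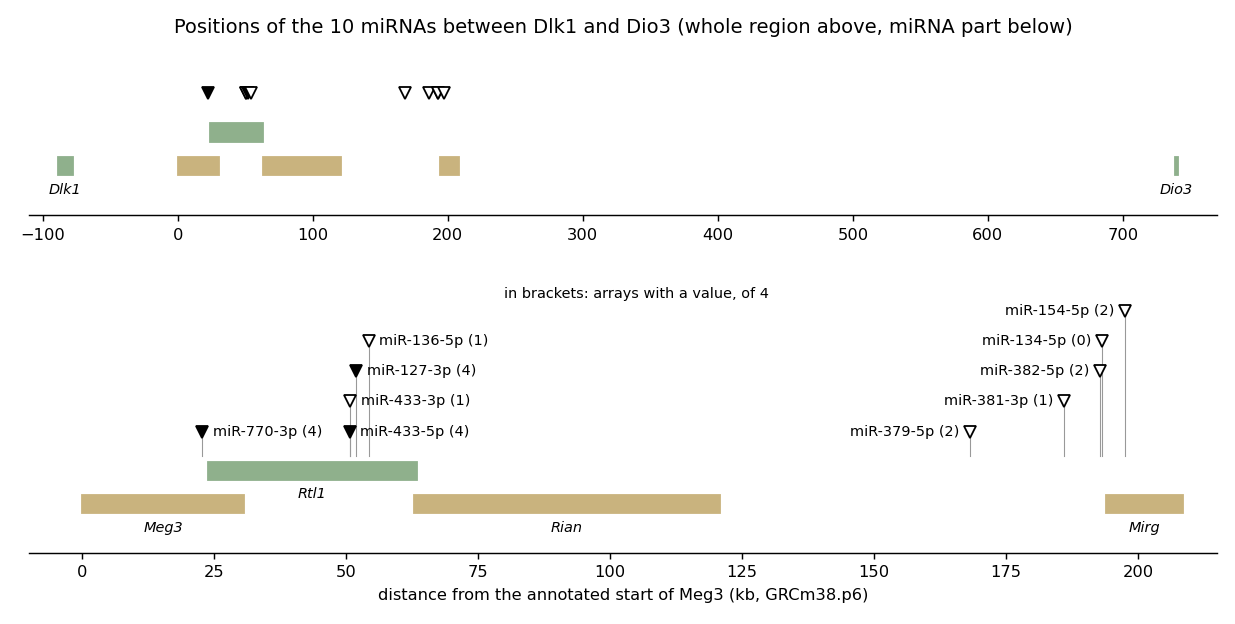
Map of the 10 miRNAs (triangles, filled where all 4 arrays listed a value) and of the annotated genes of the region by distance in kb from the start of Meg3, over the whole region above and over the miRNA part below (green, genes made from the paternal chromosome; tan, non-coding RNA genes of the maternal one). The miRNAs listed on all 4 arrays, miR-770-3p, miR-433-5p and miR-127-3p, lie 22.7, 50.7 and 51.9 kb from that start. Near them, miR-433-3p at 50.8 kb and miR-136-5p at 54.3 kb were listed on 1 array each, and those from 168 to 197 kb on 2 arrays or fewer.

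The cluster is one of position, not of sequence. No seed was shared between the 10 miRNAs. Only miR-379-5p shared its seed with another mouse miRNA of the RefSeq table, miR-1193-5p. The closest other mature sequence was 3 edits away for miR-381-3p, namely miR-300-3p, and 5 to 8 edits away for the other 9. The G and C content ran between 36.4% for miR-136-5p and 72.7% for miR-770-3p, against a median of 52.2% over the 1679 mature miRNAs of the table. The 3 miRNAs listed on all arrays were at 72.7%, 45.5% and 59.1%, and the 7 others between 36.4% and 59.1%.

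Apart from miR-770-3p and miR-433-5p, the cluster miRNAs had low signals or no value. Of the 10, 3 had a value on all 4 arrays, 3 on 2 arrays, 3 on 1 array and 1 on none. Of all 1265 probes, 28.6% had a value on all 4 arrays, 6.32% on 3, 10.8% on 2, 19.0% on 1 and 35.3% on none. The 3 of 10 on all arrays are thus close to the share over all probes. The shares of the 10 on 1 array and on 2 arrays were higher than over all probes, and that on none was lower. These differences were not tested. The cluster miRNAs listed numbered 4 on the array of aged mouse 1, 5 on that of aged mouse 2, 8 on that of young mouse 1 and 4 on that of young mouse 2. Young mouse 1 also had the longest list over all probes, 49.0% of them, against 44.5% and 45.7% for aged mice 1 and 2 and 34.7% for young mouse 2. The array with the longest list was thus also the one with the most cluster miRNAs, and the part of list length in this was not tested.

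**Figure D2:**
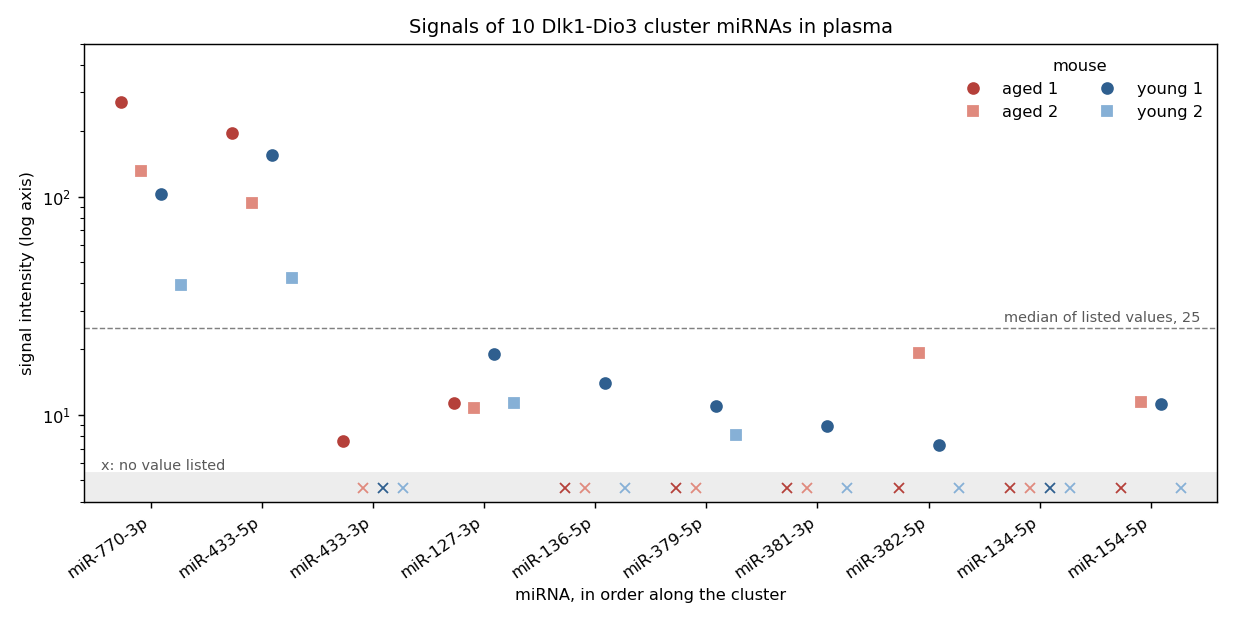
Signal intensity (log axis) of the 10 cluster miRNAs in each mouse, in order along the chromosome, with crosses where no value was listed and a dashed line at the array median of 25. All 8 values of miR-770-3p and miR-433-5p lie above the line, between 39.3 and 272.4, and all 13 values of the 8 other miRNAs lie below it, between 7.3 and 19.1.

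Of the 3 cluster miRNAs with a value in every mouse, miR-770-3p, the 3′ arm of a hairpin within the Meg3 gene, had the largest age difference on the deposited scale. Its signal was 272.4 in aged mouse 1 and 131.5 in aged mouse 2, against 102.6 in young mouse 1 and 39.3 in young mouse 2. Both aged mice were above both young mice, but the signals of the mice of one age differed by factors of 2.07 (aged) and 2.61 (young). The means were 202 ± 99.6 in aged plasma and 71.0 ± 44.8 in young plasma (SD, n = 2 mice each), a ratio of 2.85. This ratio was the fifth highest of the 362 miRNAs listed on every array, of which 4.42% had a ratio of at least 2. The study listed miR-770-3p among its largest differences on these same arrays, so its high rank is not independent of the choice to describe it.

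The log2 difference of miR-770-3p, aged minus young, was 1.58 (standard error 0.60, 95% interval 0.40 to 2.75), and it did not pass the threshold in limma with Benjamini-Hochberg adjustment over all 362 miRNAs (adjusted p = 0.53). In that fit 0% of the 362 miRNAs were higher and 0.276% lower in aged plasma at an adjusted p of 0.05, and none of the 3 cluster miRNAs tested was among them. From its own signals alone miR-770-3p had a standard error of 0.87. With a trended and robust variance its standard error was 0.65 (adjusted p = 0.89 in limma). The median log2 difference over the 362 was 0.31, and over the 3 cluster miRNAs it was 0.74. Between the same-numbered mice the signal was 2.65 times as high in aged as in young mouse 1, and 3.35 times as high in aged as in young mouse 2. With 2 mice per age, the smallest two-sided p of an exact permutation test is 0.333.

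The arrays differed in overall scale. The 362 shared miRNAs had median signals of 62.1 and 56.0 in aged mice 1 and 2, and of 67.9 and 35.2 in young mice 1 and 2, so that the array with the lowest signal of miR-770-3p was also the one with the lowest median. With these medians set equal, miR-770-3p was at 235 and 126 in aged mice 1 and 2, against 81.1 and 60.0 in young mice 1 and 2. The groups again did not overlap, and limma gave a log2 difference of 1.30 with a standard error of 0.42 (adjusted p = 0.048). Scaling each array on its 439 brightest probes gave 1.36 with a standard error of 0.41 (adjusted p = 0.031 in limma). On those scales 4.42% and 4.97% of the 362 miRNAs passed the threshold in either direction, and miR-770-3p was the one cluster miRNA among them. In each of these fits the cluster miRNAs again shared a standard error, so the calls do not rest on the spread of miR-770-3p itself. Quantile normalization gave 1.45 with a standard error of 0.51 (adjusted p = 0.33 in limma). The call of miR-770-3p therefore differed between scales, while its direction was the same on all 4. Leaving out aged mouse 1 moved the log2 difference to 1.05, and leaving out aged mouse 2 moved it to 2.10. It became 0.88 when young mouse 2 was left out and 2.27 when young mouse 1 was, and in the last of these fits, on the deposited scale, limma called both miR-770-3p (adjusted p = 0.0012) and miR-433-5p (adjusted p = 0.021). That fit has young mouse 2 as its only young mouse, whose own spread is not measured, and it called 50 of the 362 miRNAs, so the call depended on a single mouse as well as on the scaling. miR-223-3p, a miRNA of myeloid cells, also had higher signals in the aged mice on the deposited scale, at 429.9 and 499.2, against 269.1 and 141.4 in the young mice, a log2 difference of 1.25. The 3 muscle miRNAs that could be named, miR-133a-3p, miR-133b-3p and miR-1a-3p, had log2 differences of the opposite sign, at -1.28, -1.28 and -1.82. None of these 4 markers passed the threshold in limma, and their part in the difference of miR-770-3p was not tested. They could be named only because the study printed them for large age differences on these same arrays. Other markers of myeloid cells and muscle could not be matched to identifiers, so whether they go the same way is not shown. A single myeloid miRNA picked in this way does not show a rise of myeloid miRNAs as a group. By quantitative PCR in plasma the study also reports lower miR-1 and miR-133 in aged mice.

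**Figure D3:**
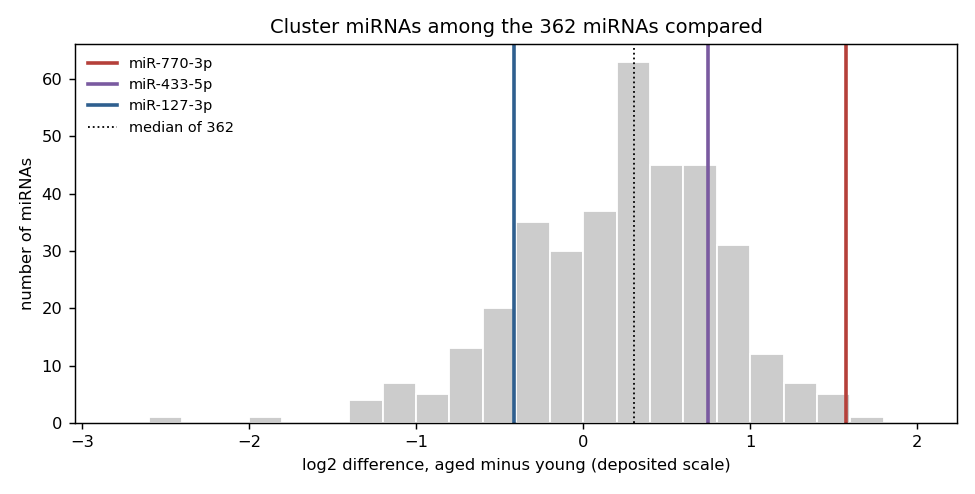
Histogram of the log2 differences, aged minus young, of the 362 miRNAs listed on every array (deposited scale), with lines at the 3 cluster miRNAs and a dotted line at the median of 0.31. The line of miR-770-3p at 1.58 lies in the upper tail, that of miR-433-5p at 0.74 within the bulk, and that of miR-127-3p at -0.41 on the lower side.

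Mir770 gives 2 annotated mature miRNAs. They are marked in capitals in its hairpin, miR-770-5p first and miR-770-3p second, to show the arm whose signal is given above. The other arm has no identifier paired with it here and was not analysed.

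Mir770 hairpin, chr12:109563692-109563785: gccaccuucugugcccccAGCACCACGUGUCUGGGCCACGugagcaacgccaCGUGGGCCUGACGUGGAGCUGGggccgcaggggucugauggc

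For Mir433 both arms have a probe among the 10. The 5′ arm, miR-433-5p, was listed on all 4 arrays, and the 3′ arm, miR-433-3p, on 1 of 4, at 7.6 in aged mouse 1, where the lowest listed value was 7.0. In the hairpin the 5′ arm comes first, and both arms are in capitals. Probes differ in their response, so the signals of the arms do not give their relative amounts.

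Mir433 hairpin, chr12:109591715-109591838: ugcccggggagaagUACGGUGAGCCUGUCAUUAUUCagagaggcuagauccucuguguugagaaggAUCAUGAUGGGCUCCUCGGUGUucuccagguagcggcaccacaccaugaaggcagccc

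The signal of miR-433-5p was 195.8 in aged mouse 1 and 93.7 in aged mouse 2, against 154.5 in young mouse 1 and 42.3 in young mouse 2. The ages overlapped, since aged mouse 2 lay below young mouse 1. The means were 145 ± 72.2 in aged plasma and 98.4 ± 79.3 in young plasma (SD, n = 2 mice each), a ratio of 1.47. The log2 difference was 0.74 (standard error 0.60, 95% interval -0.43 to 1.92, adjusted p = 0.84 from limma). That standard error is the one shared by all miRNAs compared. From its own signals alone miR-433-5p had a standard error of 1.08, larger than the difference itself. Between the same-numbered mice the log2 difference was 0.34 for number 1 and 1.15 for number 2. The aged mouse was thus the higher one in both experiments. The log2 difference became -0.19 when young mouse 2 was left out, which sets both aged mice against young mouse 1 alone, and 1.68 when young mouse 1 was left out. It became 0.21 when aged mouse 1 was left out and 1.28 when aged mouse 2 was. Equal medians gave a log2 difference of 0.47 (adjusted p = 0.63 in limma), or 0.47 in experiment 1 and 0.48 in experiment 2.

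miR-127-3p, which like miR-136-5p is fully complementary to Rtl1 mRNA and directs its cleavage, was listed on all arrays at low signals. It was at 11.3 and 10.7 in aged mice 1 and 2, against 19.0 and 11.3 in young mice 1 and 2. Aged mouse 1 and young mouse 2 had the same signal, so the ages were not separate, and no value was more than 2.71 times the lowest listed value of its array. The means were 11.0 ± 0.424 in aged plasma and 15.2 ± 5.44 in young plasma (SD, n = 2 mice each), a ratio of 0.726. The log2 difference was -0.41 with a 95% interval of -1.59 to 0.76 (standard error 0.60, adjusted p = 0.88 in limma). It was -0.75 in experiment 1 and -0.08 in experiment 2. Leaving out young mouse 1 moved it to -0.04, and leaving out young mouse 2 moved it to -0.79. Leaving out either aged mouse gave -0.45 (mouse 1) and -0.37 (mouse 2).

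With equal medians miR-127-3p was at 9.76 and 10.3 in aged mice 1 and 2, against 15.0 and 17.3 in young mice 1 and 2, and the ages no longer overlapped. The log2 difference of -0.69 on that scale did not pass the threshold (adjusted p = 0.48 in limma). On the deposited scale 1 of the 3 cluster miRNAs had both aged mice above both young mice, as had 19.9% of the 362 miRNAs, and 0 of the 3 had them below, as had 9.94%. With equal medians 1 of the 3 was above and 1 below, where 21.8% and 22.7% of the 362 miRNAs were. With 3 miRNAs these counts cannot be told from the shares over all 362. The log2 differences of the 3 were not all of the same sign on either scale. The negative one was that of miR-127-3p, which had low signals and did not pass the threshold on either scale.

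**Figure D4:**
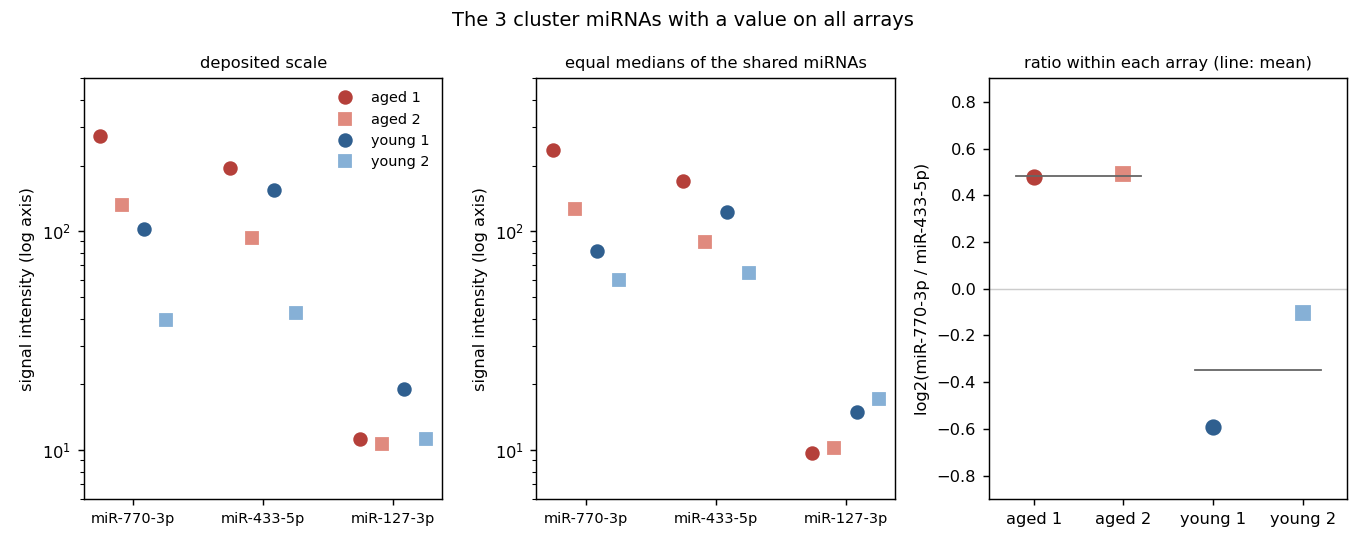
Signal intensity (log axis) of the 3 cluster miRNAs with a value on all arrays, on the deposited scale (left) and after the 362 shared miRNAs were brought to equal medians (centre), and the log2 ratio of miR-770-3p to miR-433-5p within each array (right, lines at the means). The ratio is 0.48 and 0.49 in the aged mice and -0.59 and -0.11 in the young mice.

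A ratio of 2 miRNAs within an array does not change with the scale of that array. Its difference between the ages compares the changes of the 2 miRNAs, but 2 mice per age cannot show that these were unequal. These ratios were chosen after the values were seen, and the study printed miR-770-3p for its large age difference on these same arrays. The log2 ratio of miR-770-3p to miR-433-5p was 0.48 and 0.49 in aged mice 1 and 2, against -0.59 and -0.11 in young mice 1 and 2. The means were 0.48 ± 0.0089 in aged and -0.35 ± 0.34 in young plasma (SD, n = 2 mice each), and the ages did not overlap. The difference was 0.83, and 0.59 to 1.07 with any 1 array left out. The exact two-sided permutation test gave p = 0.333, the smallest it can give here. For miR-770-3p over miR-127-3p the log2 ratio was 4.59 and 3.62 in aged mice 1 and 2, against 2.43 and 1.80 in young mice 1 and 2. For miR-433-5p over miR-127-3p it was 4.11 and 3.13 in aged mice 1 and 2, against 3.02 and 1.90 in young mice 1 and 2. These 2 ratios averaged 1.99 and 1.16 higher in the aged mice, without overlap, but their denominator miR-127-3p had signals of only 1.13 to 2.71 times the lowest listed value of the array, so their size is uncertain and no test is given. The 3 ratios share miRNAs and arrays and are not independent of each other. How often the ratios of other pairs separate the ages was not computed. Single miRNAs often did on the deposited scale, 19.9% of the 362 with both aged mice above and 9.94% with both below. The lack of overlap is therefore not a result about these miRNAs.

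**Figure D5:**
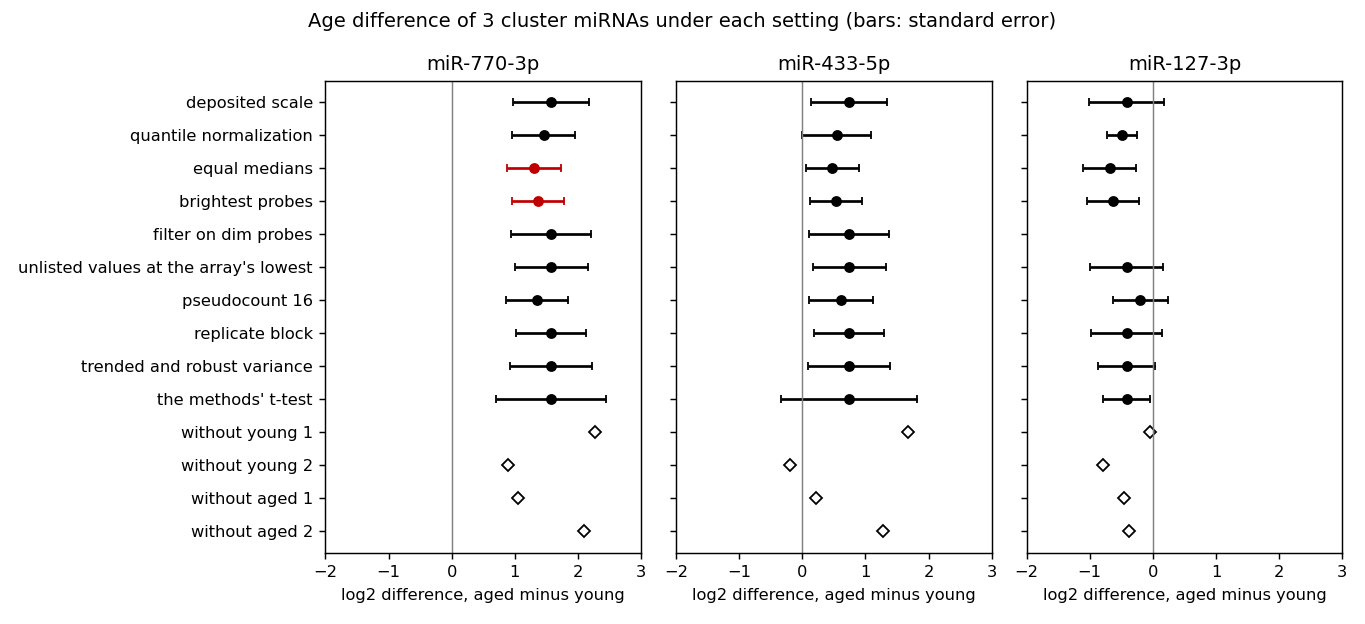
Log2 difference, aged minus young, of the 3 cluster miRNAs under each setting. Settings with all arrays have standard errors as bars and are red where the adjusted p was below 0.05. Fits with 1 array left out are open black diamonds without bars, whatever their adjusted p. All points of miR-770-3p lie above 0 and all of miR-127-3p below it, and those of miR-433-5p lie above 0 except without young mouse 2.

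The other cluster miRNAs gave too few values for a comparison of the ages. miR-136-5p was listed in young mouse 1 alone, at 14.0. miR-379-5p, the first miRNA of the group that ends within Mirg, was at 11.0 and 8.1 in young mice 1 and 2 and was not listed in either aged mouse. Of the 10 it was the 1 miRNA listed in both young mice and neither aged mouse, as were 1.11% of all probes, and none of the 10 was listed in both aged mice and neither young mouse, as were 2.21% of all probes. Its 8.1 was the lowest value listed on the array of young mouse 2. The rule behind a blank is not given in the sources used, so no fold was taken against a blank, apart from a separate setting that puts blanks at the lowest listed value of their array.

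miR-381-3p was listed in young mouse 1 alone, at 8.9. miR-382-5p had 19.1 in aged mouse 2, against 7.3 in young mouse 1, and no value in the other two mice. miR-154-5p had 11.5 in aged mouse 2, against 11.2 in young mouse 1. miR-134-5p, a regulator of dendritic spine size in neurons, was listed in no mouse. In that setting, which allowed 3 further cluster miRNAs to be tested, the log2 differences were -0.09 for miR-154-5p, -0.21 for miR-379-5p and 0.59 for miR-382-5p (adjusted p = 0.97, 0.93 and 0.93 from limma). None of them passed the threshold, and each rests on 2 measured values, with the other 2 put in place of blanks.

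Of the 23 other miRNAs whose names the study printed with their signals, miR-680, miR-5621-5p and miR-744-5p had the profiles closest to that of miR-770-3p, the cluster miRNA with the highest mean log2 signal. Likeness was taken as the Euclidean distance of log2 signals, each centred over the 4 arrays. The distance was 0.32 for miR-680, the second closest of 359 other miRNAs, 0.40 for miR-5621-5p and 0.47 for miR-744-5p. miR-680 was at 1567.2 and 888.0 in aged mice 1 and 2, against 553.6 and 277.1 in young mice 1 and 2. It therefore followed the same order over the 4 mice as miR-770-3p. Within the cluster the distance to miR-770-3p was 0.90 for miR-433-5p and 2.15 for miR-127-3p. The 23 were printed by the study for their large age differences on these same arrays, so that a profile close to that of miR-770-3p is in part a matter of how they were picked. All distances rest on 4 arrays and include the shared scale of each array.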

How the data were processed

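Plasma RNA was isolated with a Norgen kit, labelled with Hy5 and hybridized to 3D-Gene chips for mouse miRNAs, with an array for each of the 4 mice. The authors deposited intensities on a linear scale, brought to a median of 25 over the listed values of an array. How they corrected background, scaled and listed values, the sources used here do not say. The 8 columns of a second table were left out because their headings do not tell which mouse they hold.

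The log2 of each value was taken with no pseudocount. The 362 probes with a value on all 4 arrays were compared, aged minus young, with lmFit and eBayes of limma 3.58.1 (R 4.3.3, no block) and Benjamini-Hochberg adjustment, with a threshold of 0.05. On the deposited scale eBayes estimated the same spread for all miRNAs, which gives all differences the same standard error. The step was tested on simulated data with the same spread for all miRNAs and no difference in scale between arrays. That test therefore does not cover the scale differences of the real arrays. Python 3.11.15 (numpy 2.4.6, pandas 2.3.3, matplotlib 3.10.9) served for tables and figures. Sequences and positions are from RefSeq (GRCm38.p6). The number of arrays limits the precision.

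The 10 miRNAs, the lists and the alternatives were chosen with earlier results of these data known. All 10 were to be named, with the 3 named miRNAs of closest profile. Names of the 10 came with their identifiers, and miR-770-3p was also matched to its signals as printed by the study. The other miRNAs of the region could not be matched to identifiers. Of the cell type markers only miR-223-3p, miR-133b-3p, miR-133a-3p and miR-1a-3p could be, through the signals the study printed, and the marker lists were not tested. That each array is 1 mouse comes from the labels.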

Additional observations from a re-analysis of the deposited data

How the results depend on the processing

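On the deposited scale limma called 1 of 362 miRNAs and 0 of the 3 cluster miRNAs. Over all miRNAs the count was 16 with equal medians, 18 with the brightest probes and 2 with blanks at the lowest value of the array. It was 0 with quantile normalization, with a trended and robust variance and in the methods' t-test (the study names an analysis of variance for its data in general, which for 2 groups is this test, and no test for these arrays), where 53, 15 and 7 miRNAs had an unadjusted p below 0.05. Of the cluster miRNAs 1, miR-770-3p, was called with equal medians and 1, again miR-770-3p, with the brightest probes. With 1 array left out the counts ran from 0 to 50 over all miRNAs and from 0 to 2 for the cluster, and the median log2 difference of the cluster miRNAs from -0.19 to 1.68. In those fits the lone mouse is assumed to vary like those of the other age. The 1 reversal was that of miR-433-5p without young mouse 2, at -0.19. The cause of these changes was not tested.

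The ages share the numbers 1 and 2, which the study calls experiments without saying what the arrays of an experiment had in common. The deviations of same-numbered arrays had a correlation of 0.34 across miRNAs. With the mouse number as a replicate block, limma called 1 of 362 miRNAs and 0 cluster miRNAs, as without it, the median log2 difference of the cluster miRNAs was 0.74, and the adjusted p of miR-770-3p was 0.31. The filter on dim probes removed miR-127-3p, and settings for the other miRNAs of the region were not run.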
